A study of Oncorhynchus kisutch with 221 samples.

Results

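White muscle of coho salmon (Oncorhynchus kisutch) caught at sea in the fall of 2009 was compared between 2 areas of the Strait. The fish were chosen by their labels alone, as those with season Ocean_Fall, year 2009 and area south_SoG or NM_SoG, which gave 58 of the 221 fish of the series. South_SoG held 26 fish, of which 12 were of hatchery and 14 of wild origin, and NM_SoG held 32, of which 17 were of hatchery and 15 of wild origin. NM_SoG joins 2 subareas of the labels, with 20 fish from mid_SoG and 12 from north_SoG. The fish were separate animals of both sexes, with 11 females and 15 males in south_SoG, against 16 of each sex in NM_SoG. By stock region, 11 fish of south_SoG were labelled Fraser, 7 ECVI, 7 S_Main and 1 Chilliwack_R, against 8 Fraser, 12 ECVI and 12 S_Main in NM_SoG. The sample titles call these fish smolts, whereas the season label places them in the ocean in fall. No treatment was given in the labels, and each fish was caught once, so area stands for where a fish was when it was sampled.

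White muscle makes up most of a salmon's trunk and powers fast swimming. It is the main store of body protein, and its gene expression is known to change with growth, feeding and temperature. Coho salmon spend their first months at sea in coastal waters, and fish from many rivers mix there. Hatchery fish are reared in captivity before release, while wild fish hatch in rivers.

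RNA of each fish carried an Alexa dye and was hybridised, on 1 array per fish, with a pool of all muscle samples that carried another Alexa dye, so a value is the log ratio of a fish to the pool. Neither the log base nor which channel was on top is stated in the labels or files. Values were read as log2 of fish over pool, and every direction in the text rests on that reading. A pool of the same fish should give a mean linear ratio near 1: its log2 had a median of -0.03 in this reading over the 372 most variable probes (variance over 1.6), against 1.64 in the other, whereas among probes of low variance the other reading lay nearer 0. The deposited tables hold 43636 probes, none of which matched an entry of the gene table used here, so probes are given by identifier, without gene names or sequences, and no pathway or cell type marker could be examined. Of the cells of the 58 fish, 46.99% were empty. Array medians lay between -0.01 and 0.03, and 1 of 1653 pairs of arrays correlated below -0.3, at -0.351. The number of fish limits the precision of all values.

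No tested label differed between the areas past the threshold. Origin gave an adjusted p of 0.792 and sex 0.792 (both Fisher's exact test, two-sided), and stock region 0.792 (permutation of the chi-square). Origin and stock region were tied within areas, however. All 9 hatchery fish of ECVI were caught in NM_SoG and none in south_SoG, and 8 of the 12 hatchery fish of south_SoG were labelled Fraser, against 2 of the 17 hatchery fish of NM_SoG. Fork length averaged 24.1 ± 2.68 cm in south_SoG (SD, n = 26) and 24.8 ± 2.07 cm in NM_SoG (SD, n = 32). Mass, where listed above 0, averaged 172.5 ± 56.98 g in south_SoG (SD, n = 24) and 190.8 ± 45.4 g in NM_SoG (SD, n = 29). Condition factor, which is 100 times mass over length cubed, averaged 1.21 ± 0.071 in south_SoG and 1.24 ± 0.051 in NM_SoG over the same fish. Adjusted p-values of these 3 size measures were 0.246, 0.246 and 0.205 (two-sided permutation tests, 100000 resamples). The difference in condition was smaller than the SD within either area.

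Of 21816 probes measured in at least 50% of the fish of each area, 30 passed an adjusted p of 0.05 in limma with origin as a covariate, which is 0.138% of those tested. Of these, 25 (0.115%) were lower in south_SoG and 5 (0.0229%) were higher. Over all tested probes 49.6% were lower in south_SoG. The 25 lower probes differed by -1.28 to -0.42, with a median size of 0.65, and the 5 higher ones by 0.34 to 0.53, with a median size of 0.43, against a median size of 0.09 over all probes tested. Of the 30, 6 differed by at least 1. No called probe separated the areas completely, since their fish overlapped for all 30. For 21 of the 25 lower probes the mean was below the pool in south_SoG and above it in NM_SoG. That count comes from the fish that called these probes, and the share over all tested probes is not given here. An unadjusted p under 0.05 was reached by 1850 probes.

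**Figure D1:**
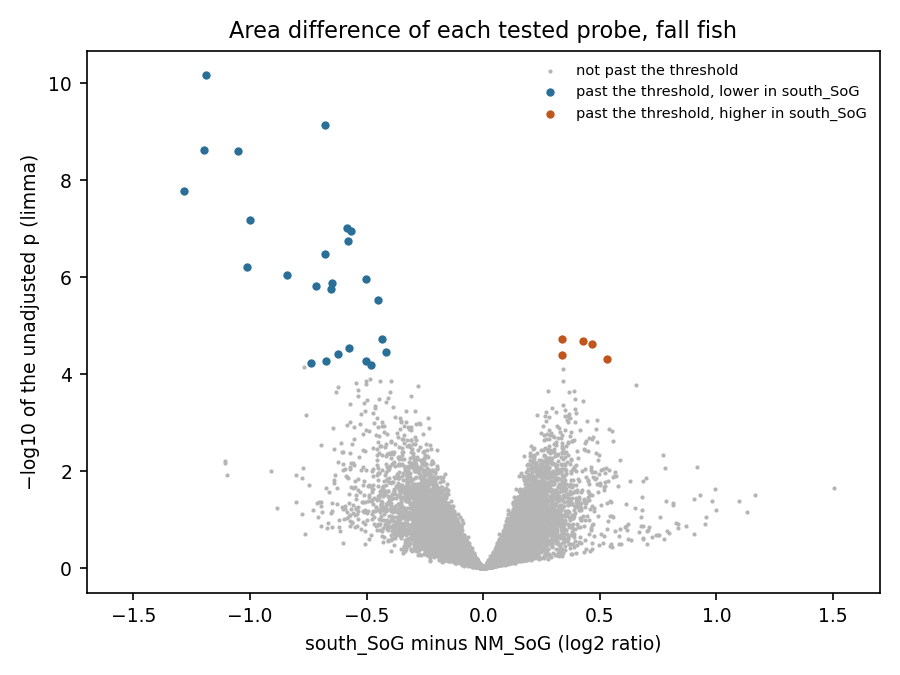
Each point is 1 of 21816 tested probes, with the south_SoG minus NM_SoG difference on the horizontal axis (log2 ratio) and the negative log10 of limma's unadjusted p on the vertical axis. The 25 blue points passed the threshold lower in south_SoG and reach further from 0 than the 5 orange points, which passed it higher.

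The probe with the largest difference was C119R027. Its log ratio ranged in south_SoG between -2.18 and 0.31, with a median of -0.81, against -1.13 and 1.82 with a median of 0.55 in NM_SoG. In south_SoG 25 of 26 fish were below the pool, against 12 of 32 in NM_SoG, so the areas overlapped at values below the pool. The means were -0.84 ± 0.61 in south_SoG (SD, n = 26) and 0.44 ± 0.86 in NM_SoG (SD, n = 32), a difference of -1.28 ± 0.20 (SE) with an adjusted p of 7.169e-05 in limma. Among the 17 south_SoG and 16 NM_SoG fish numbered above 3100 in the labels it differed by -1.10 and did not pass (adjusted p = 0.1609, limma). These 16 fish were all of mid_SoG, and most ECVI fish of south_SoG lay outside this subset. It therefore differed from the full set in subarea and stock as well as in size.

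C236R142 was the other largest among lower probes. It ranged in south_SoG between -2.27 and 0.98, with a median of -0.23, against -0.07 and 2.17 with a median of 0.81 in NM_SoG. Of the south_SoG fish 1 of 26 exceeded the NM_SoG median, and of the NM_SoG fish 0 of 31 were below the south_SoG median. The means were -0.38 ± 0.74 (SD, n = 26) in south_SoG and 0.82 ± 0.58 (SD, n = 31) in NM_SoG. The difference was -1.20 ± 0.17 (SE), with an adjusted p of 1.356e-05 in limma. Among the fish numbered above 3100 it differed by -1.02 and did not pass (adjusted p = 0.07737, limma).

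C015R068 was the largest of the 5 higher probes. It ranged in south_SoG between -0.998 and 0.98, with a median of 0.01, against -1.67 and 0.61 with a median of -0.58 in NM_SoG. The south_SoG fish thus lay around the pool's level and 27 of 31 NM_SoG fish lay below it. The means were -0.03 ± 0.43 (SD, n = 26) in south_SoG and -0.56 ± 0.49 (SD, n = 31) in NM_SoG, and the difference was 0.53 ± 0.12 (SE), with an adjusted p of 0.04167 in limma. It did not pass with fork length as a covariate (adjusted p = 0.07438, limma), nor in 29 of the 58 fits that left out 1 fish, where its adjusted p ran up to 0.0849. Among the fish numbered above 3100 it differed by 0.58 and did not pass (adjusted p = 0.4689, limma).

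C040R052 was the second of the higher probes. It ranged in south_SoG between -0.84 and 1.01, with a median of 0.32, against -1.24 and 0.34 with a median of -0.21 in NM_SoG. Above the pool were 20 of 26 fish in south_SoG, against 9 of 32 in NM_SoG. The means were 0.23 ± 0.43 (SD, n = 26) in south_SoG and -0.25 ± 0.35 (SD, n = 32) in NM_SoG, and the difference was 0.47 ± 0.10 (SE), with an adjusted p of 0.02433 in limma. It did not pass in 3 of the 58 fits that left out 1 fish, where its adjusted p ran up to 0.0515. Among the fish numbered above 3100 it differed by 0.34 and did not pass (adjusted p = 0.9443, limma).

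**Figure D2:**
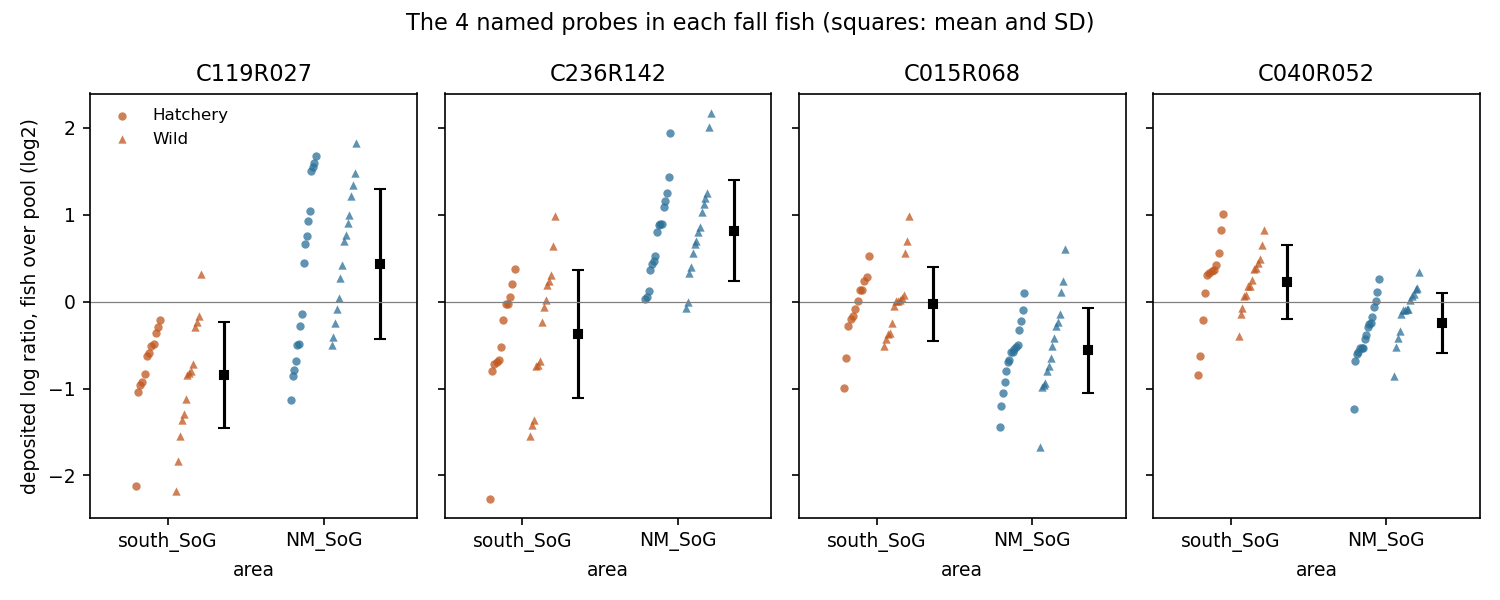
Points are single fish, circles for hatchery and triangles for wild origin, with south_SoG left of NM_SoG and the log ratio to the pool (log2) on the vertical axis. Squares with bars are the mean and SD over all fish of an area, and the fish of the areas overlap for each of the 4 probes.

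Arrays lay on slides that held up to 4 of these fish, and the areas were spread unevenly over them. Of 29 slides, 12 held fish of south_SoG alone, 14 held fish of NM_SoG alone and 3 held both, and those 3 carried 6 fish of south_SoG and 4 of NM_SoG. With slide as a random block (within-slide correlation 0.242), 12 of the 30 probes stayed past the threshold in limma, all lower in south_SoG, and none of the 5 higher ones did. C119R027 differed by -1.13 and C236R142 by -1.08 under that block (adjusted p = 0.001665 each, limma), while C015R068 (adjusted p = 0.4164) and C040R052 (adjusted p = 0.1709) no longer passed. The block gave every probe the same correlation of 0.242, whereas that of C119R027 by itself was 0.67. The adjusted p of C119R027 under the block is thus likely too small, and a fit with its own correlation was not made. With slide as a fixed block, which rests on the 3 slides that held both areas, 0 of 21590 probes passed in limma. An unadjusted p under 0.05 was reached by 405 of the 21590. The 30 called probes had a median of 0.18 in their reported direction, against 0.60 without the block. Of the 30, 24 kept their direction, and C119R027 differed by -0.40 ± 0.28 (SE) and C236R142 by -0.19 ± 0.34 (SE). The fish of those 3 slides also entered the calls, so directions kept under this block are not independent of how the probes were called. With slide as a fixed block and all 221 fish in the fit, fish of other groups on the slides also linked the areas. There 28 of 30 kept their direction, at a median of 0.22, and 0 passed. The share of all probes that kept their direction is not given here for either fit. In that fit C119R027 differed by -0.19 ± 0.23 (SE) and C236R142 by -0.44 ± 0.21 (SE). Slide and area therefore could not be told apart for most fish, and how far slides carry the differences was not tested.

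The values on those 3 slides can be read directly. On the first, C119R027 was -0.60, -0.30 and -0.29 in the south_SoG fish, against 0.44 in the NM_SoG fish. On the next, it was -0.85 and -0.62 in south_SoG, against -0.79 and -0.50 in NM_SoG. On the last, it was -0.82 in south_SoG, against -0.40 in NM_SoG. In the other direction, C236R142 was 0.31 in the south_SoG fish of the last slide, against -0.07 in its NM_SoG fish. When probes were called without the fish of a slide, 16 of 20 lay in the called direction on the first slide, 20 of 36 on the next and 14 of 35 on the last, against 51.9%, 48.1% and 50.3% of all probes tested. On the 5 slides that held 3 or 4 NM_SoG fish, the mean of C119R027 ran between -0.63 and 1.51. These slides also differed in stock and origin. The one at -0.63 held ECVI hatchery fish alone and the one at 0.70 Fraser wild fish alone. The one at 0.90 held S_Main fish alone and the one at 1.01 Fraser fish alone. Slide and stock cannot be told apart on slides of 1 stock. The one at 1.51 held ECVI, Fraser and S_Main fish, and its 4 fish lay between 1.22 and 1.82. Over all slides, ECVI fish of NM_SoG lay between -1.13 and 1.55. How far slide or stock carries these values was not tested. Per probe, the within-slide correlation was 0.67 for C119R027, 0.23 for C236R142, 0.28 for C015R068 and 0.23 for C040R052, with a median of 0.10 over the 30 called probes and 0.24 over all probes tested. The 30 were called on the same fish, and most slides held 1 area. Their lower median therefore does not show a weaker tie to slides.

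**Figure D3:**
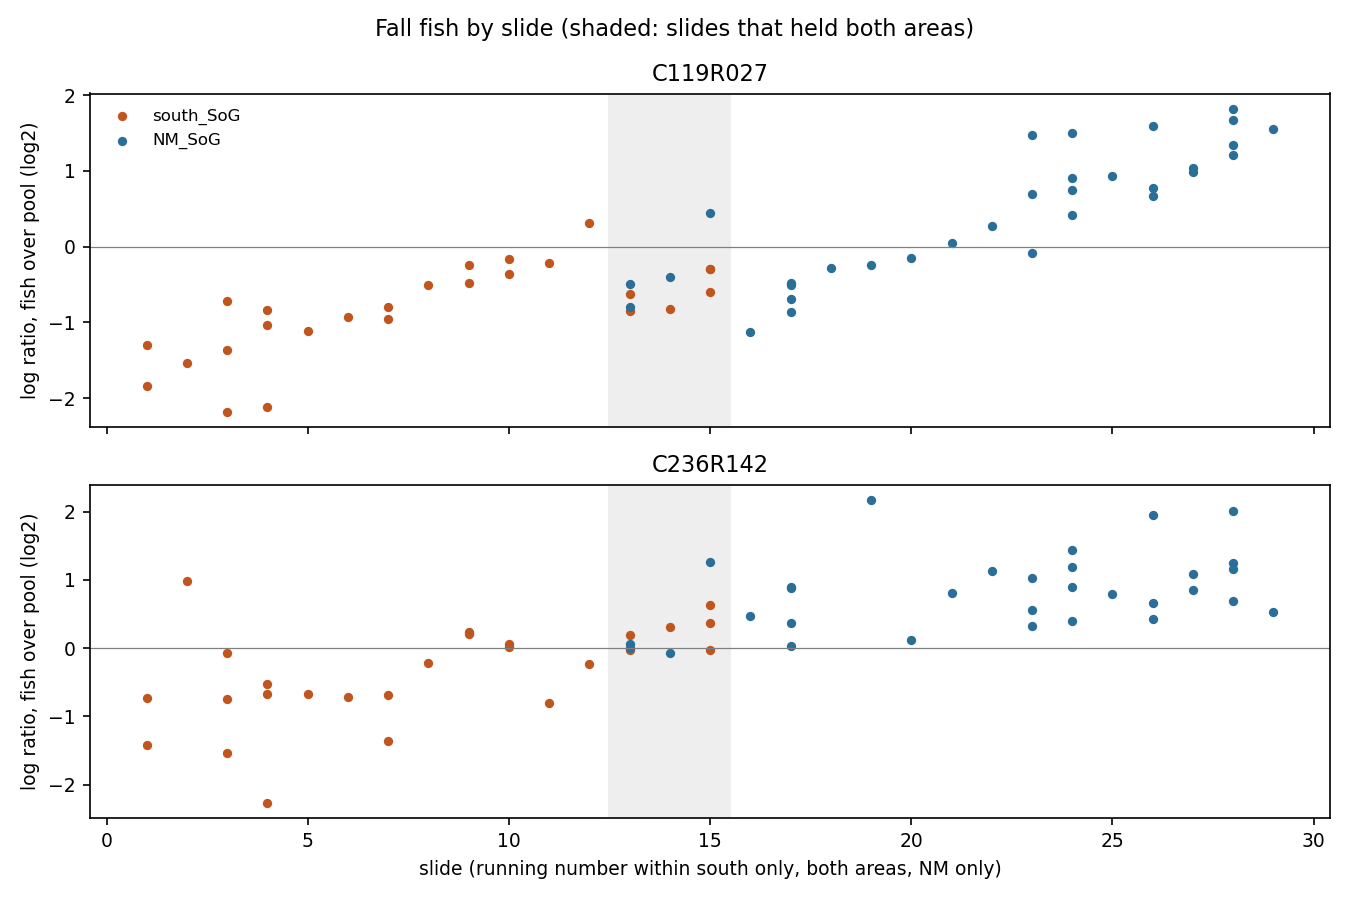
Each point is 1 fall fish on its slide, with the log ratio to the pool (log2) on the vertical axis and slides ordered by their mean of C119R027 within slides of south_SoG alone (left), slides with both areas (shaded) and slides of NM_SoG alone (right). Fish of a slide tend to lie together for C119R027, and the areas overlap on the shaded slides.

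Among hatchery fish 4 of 20591 probes passed (0.0194%), all lower in south_SoG, and among wild fish 6 passed (0.0291%), also all lower. With slide as a random block 0 passed in hatchery and 0 in wild fish by limma, with 1248 and 665 at a p under 0.05 before adjustment, so every call within an origin given here is without the block. Quantile normalization left 1 in hatchery fish. All 29 called probes that could be tested within both origins had the same sign in each, which is not independent of how they were called, because the same fish enter. C236R142 differed by -1.22 in hatchery fish (adjusted p = 0.03758, limma) and by -1.18 in wild fish (adjusted p = 0.02506, limma). C119R027 differed by -1.06 in hatchery fish, which did not pass (adjusted p = 0.2613), and by -1.50 in wild fish (adjusted p = 0.01065, limma). Its means were -0.75 ± 0.51 (SD, n = 12) in hatchery fish of south_SoG and 0.31 ± 0.98 (SD, n = 17) in hatchery fish of NM_SoG. In wild fish they were -0.92 ± 0.69 (SD, n = 14) in south_SoG and 0.58 ± 0.72 (SD, n = 15) in NM_SoG. The interaction of area and origin passed for 0 of 20591 probes (0.0%) by limma, and 845 had a p under 0.05 before adjustment.

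By stock region, C119R027 was lower in south_SoG in each of the 3 regions that both areas held. The means were -1.43 ± 0.48 (SD, n = 7) in ECVI fish of south_SoG and 0.08 ± 0.93 (SD, n = 12) in ECVI fish of NM_SoG. Fraser fish averaged -0.50 ± 0.28 (SD, n = 11) in south_SoG and 0.84 ± 0.76 (SD, n = 8) in NM_SoG, and S_Main fish -0.85 ± 0.71 (SD, n = 7) in south_SoG and 0.53 ± 0.78 (SD, n = 12) in NM_SoG. With stock region as a covariate 25 of the 30 probes stayed past the threshold. Fits within 1 region, chosen after seeing the data, called 0 probes in ECVI, Fraser and S_Main. An unadjusted p under 0.05 in limma was reached by 911 of 22779, 940 of 20789 and 1302 of 21431 probes tested there. In those fits, which kept origin as a covariate, C119R027 differed by -2.30 among ECVI fish, -1.38 among Fraser fish and -1.38 among S_Main fish, and C040R052 by 0.22, 0.77 and 0.22, none past the threshold. The ECVI value rests on 7 wild fish of south_SoG and 3 wild fish of NM_SoG, since south_SoG held no hatchery fish of ECVI. C236R142 lay lower in south_SoG in all 3 regions as well.

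The subareas were then taken apart, in comparisons that share the south_SoG fish. South_SoG against mid_SoG gave 20 lower (0.0936%) and 1 higher (0.00468%) of 21365 probes, together 0.0983%, and south_SoG against north_SoG gave 5 lower and 0 higher (0.0234%). Before adjustment 1491 probes had a p under 0.05 against mid_SoG and 1937 against north_SoG by limma. The calls thus do not show which subarea was less like south_SoG. With slide as a random block 12 and 1 passed, all lower, and the adjusted p-values of single probes given here are without the block. Mid_SoG against north_SoG gave 0 (0.0%) by limma, and 1245 had a p under 0.05 before adjustment. The largest difference between south_SoG and north_SoG was that of C056R158, -1.34 ± 0.20 (SE), adjusted p = 0.0001355 in limma. C119R027 averaged 0.53 ± 0.90 (SD, n = 20) in mid_SoG and 0.28 ± 0.82 (SD, n = 12) in north_SoG, and differed between south_SoG and mid_SoG by -1.38 ± 0.22 (SE, adjusted p = 0.0002545 in limma). Its difference of -1.13 ± 0.26 (SE) between south_SoG and north_SoG did not pass (adjusted p = 0.1228). C236R142 passed both, at -1.13 ± 0.19 (SE, adjusted p = 0.0006755) and -1.32 ± 0.23 (SE, adjusted p = 0.004154). Fish were caught between 48.72 and 49.44 degrees north in south_SoG, between 49.39 and 49.77 in mid_SoG and between 49.74 and 49.97 in north_SoG. Latitude within areas passed for 0 of 21816 probes (0.0%) by limma, and 1719 had a p under 0.05 before adjustment. For C119R027 its slope was -0.17 ± 0.48 per degree (SE).

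Summer fish of the same year gave values in animals that had not chosen the probes, 17 of south_SoG and 32 of NM_SoG, although 7 slides held both summer and fall fish of this comparison. Some of these slides held the same area in both seasons. Most slides with summer fish also held only 1 of the areas, so slide and area were largely joined in summer too. How far slides carry the summer values was not tested. Both areas held hatchery and wild fish in summer. Most summer fish of south_SoG were labelled ECVI, whereas most of NM_SoG were labelled Fraser or S_Main. The summer fit had origin but not stock region as a covariate, so area and stock were partly joined there. No probe of 21776 passed between the areas in summer (0.0%) by limma, and 2047 had a p under 0.05 before adjustment. With slide as a random block 0 passed by limma, and 1300 had a p under 0.05 before adjustment. With fork length as a covariate and no block 11 passed. Of the 23 probes that were lower in fall and tested in summer, 22 were lower in summer too and 10 of them had an unadjusted p under 0.05. Their median difference was -0.26 in summer, against -0.65 in fall. Of the 5 higher ones, 3 were higher in summer. Among all other probes tested 59.9% had the same sign in both seasons.

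C119R027 averaged -1.08 ± 0.45 (SD, n = 17) in south_SoG and -0.52 ± 0.86 (SD, n = 32) in NM_SoG in summer, a difference of -0.61 ± 0.22 (SE) that did not pass (adjusted p = 0.4278, limma). C236R142 averaged -0.40 ± 0.61 (SD, n = 17) in south_SoG and -0.03 ± 0.70 (SD, n = 32) in NM_SoG, a difference of -0.42 ± 0.20 (SE), adjusted p = 0.491 in limma. The higher probes differed by 0.20 ± 0.16 (SE) for C015R068 and 0.19 ± 0.12 (SE) for C040R052 in summer, neither past the threshold. The interaction of area and season passed for 0 of 21284 probes (0.0%) by limma, and 1061 had a p under 0.05 before adjustment, so the smaller values in summer were not shown to differ from those in fall.

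**Figure D4:**
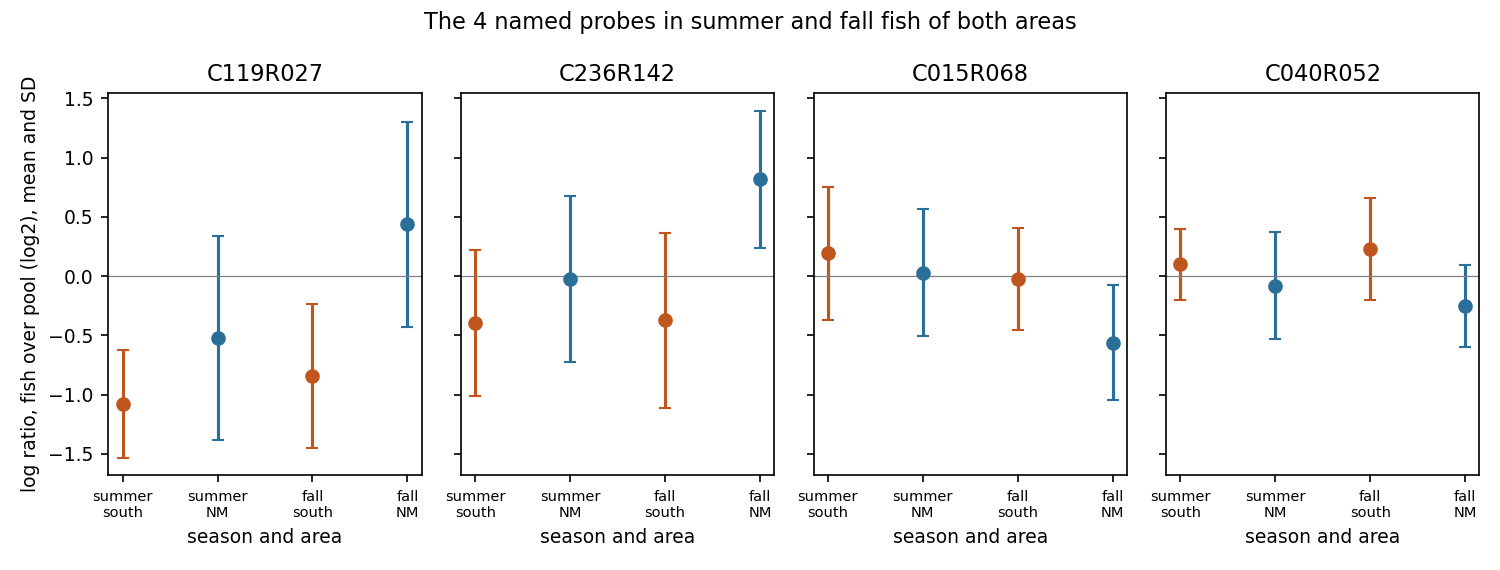
Points are the mean and bars the SD over fish of the log ratio to the pool (log2), for summer and fall fish of south_SoG and NM_SoG in 2009. In fall the mean of C119R027 is -0.84 in south_SoG and 0.44 in NM_SoG, and in summer it is -1.08 in south_SoG and -0.52 in NM_SoG.

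The 2 lower probes varied together among the fall fish. Centred within areas, C119R027 and C236R142 had a Pearson r of 0.544 and a Spearman rho of 0.564 over 57 fish, each with a permutation p of 1e-05, the smallest 100000 resamples can give. Without the 2 fish farthest from the median of C119R027 the r was 0.517. Within slides and areas it was 0.80 over 41 fish. A p was computed for this pair alone, so it was not adjusted, and both probes had been called on the same fish. The permutations moved fish freely over slides. Since the fish of a slide are not independent, the p may be too small. Among the 25 lower probes, the median pairwise r within areas was 0.25 over 300 pairs, and 34 pairs exceeded 0.5, as a description of probes called on the same fish. The same values over pairs of all tested probes are not given here. Whether C119R027 and C236R142, or the 25 lower probes, varied together more than other probes was therefore not tested.

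Measures over all probes together gave no difference past the threshold. None of the first 5 principal components over 11261 probes measured on all 58 arrays passed, with adjusted p-values of 0.959 each (two-sided permutation tests). The share of empty cells per array was 45.1% ± 11.0 in south_SoG (SD, n = 26) and 48.5% ± 5.31 in NM_SoG (SD, n = 32), p = 0.129 (two-sided permutation test). No probe of 23130 was measured more often in 1 area (0.0%) by Fisher's exact test after adjustment, with 1357 at an unadjusted p under 0.05, of which 1291 were measured more often in south_SoG. Of the 17 control rows tested, out of 60, none passed (0 called, 0.0%) by limma, and before adjustment 1 had a p under 0.05. Their differences had a median size of 0.07, against 0.09 over all probes tested, and the largest was 0.60.

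**Figure D5:**
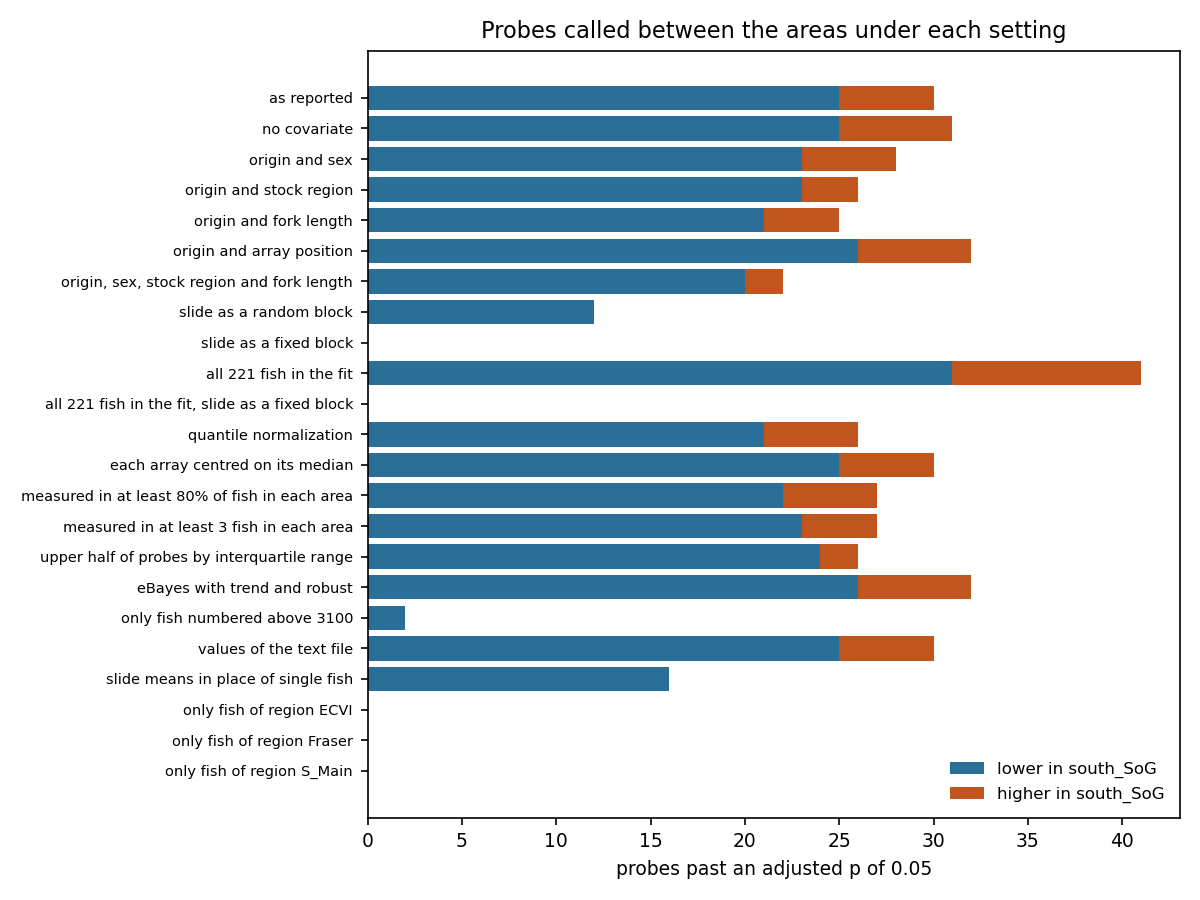
Bars give the number of probes past an adjusted p of 0.05 between south_SoG and NM_SoG under each setting, split into lower (blue) and higher (orange) in south_SoG. Counts lie between 22 and 41 for most settings, at 12 with slide as a random block, and at 0 with slide as a fixed block.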

How the data were processed

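Two-colour array values of white muscle were used for 58 fall fish and, for the summer comparison, 17 and 32 summer fish of 2009. Per the labels' protocols, amplified RNA of each fish was hybridised with a pool of muscle samples in the other dye, without a dye swap. The authors deposited 1 normalized value per probe and fish, read here as log2 of fish over pool. How spots were quantified, corrected and normalized, and why cells were left empty, is not given in the sources used here. For these fish, both deposited tables held the same values, and the text file has 60 control rows as well.

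Differences were fitted in R 4.3.3 with limma 3.58.1 (lmFit, eBayes, two-sided, Benjamini-Hochberg over all tested probes, threshold 0.05) and the package data.table (version 1.17.8). The covariate was origin. Permutation tests and Fisher's exact tests were run in Python 3.11.15 with scipy 1.17.1. In a simulation that kept each probe's empty cells and spread but had no slide effects, 73% of 100 probes changed by 0.5 and 98% of 100 changed by 1 were recovered in the fall comparison over 21816 probes, with 12 false calls. Named probes were those past the threshold with the same sign in both origins and the 2 largest differences each way. For the other comparisons the same probes are given, plus the largest past the threshold each way.

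The fish, lists and tests were chosen with earlier results of these data known. The gene lists were not tested, since 0 of 43636 probe identifiers matched the gene table. Replicate numbers follow accession order and pair no fish. Alternatives were other covariates, slide blocks, normalizations, filters, subsets and leaving out single fish; those added after seeing the data were slide means, single regions and leaving out single slides.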

Additional observations from a re-analysis of the deposited data

Results flagged for a closer look

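The 10 fall fish of 2009 labelled WCVI entered the results above only through the fits with all 221 fish. Among these 10, 1 fish stood apart from the others for C119R027, at 1.73, where the mean was -0.44 ± 0.86 (SD, n = 10). It was 1 of 8 sets of 4 to 10 fish examined, and chance marks about 1 in 20 such sets.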

How the results depend on the processing

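The count of 30 probes between the areas lay between 22 and 41 under the other covariates, filters and normalizations tried and with all 221 fish in the fit. It was 12 with slide as a random block, 0 with slide as a fixed block, and 0 with that block and all 221 fish. It was 2 among the 17 south_SoG and 16 NM_SoG fish numbered above 3100 in the labels, the latter all of mid_SoG. None of the 4 named probes passed there, with differences of -1.10 for C119R027, -1.02 for C236R142, 0.58 for C015R068 and 0.34 for C040R052. The count was 16 with slide means in place of single fish, and 0 among fish of ECVI, of Fraser or of S_Main alone. These settings of slide means and single regions were added after seeing the data. Leaving out single fish gave 19 to 36, and 19 came without replicate 29 of NM_SoG; C015R068 did not pass in 29 of these 58 fits and C040R052 in 3, while C119R027 and C236R142 passed in all. Leaving out single slides gave 17 to 38, with fewer than 20 for 5 slides of 2 or 3 fish, 4 of them of south_SoG and 1 of NM_SoG, which gave 17, 18, 19, 19 and 17. With slide as a random block 0 probes passed within hatchery and 0 within wild fish, 12 between south_SoG and mid_SoG and 1 between south_SoG and north_SoG. Quantile normalization left 1 within hatchery fish. Fork length as a covariate gave 11 in summer, and leaving out the 5 fish with most empty cells gave 1 probe measured more often in south_SoG. Of the named probes, C015R068 turned to -0.014 with slide as a fixed block. The causes of these changes were not tested. Single regions and fits without a slide also held fewer fish, and how far that moved the counts was not tested. No paired analysis was possible because replicate numbers follow accession order and the fish are separate animals.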
